A study of Mus musculus with 28 samples.

Results

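Embryoid bodies (EBs) of the wild-type mouse embryonic stem cell lines CJ7 and CCE were compared across all genes, from 2 RNA-seq libraries of each line. These 4 libraries were chosen by their labels alone, out of the 28 of the series. Stem cells were grown on mouse embryonic fibroblasts with LIF and 2i (inhibitors of MEK and GSK3), then left without LIF for 5 days to form EBs, and total RNA depleted of ribosomal RNA was sequenced. The CJ7 group is labelled wild type and the CCE group EloA+/+, that is, both alleles of the Elongin A gene are intact, and the growth protocol names the CCE cells CCE28. The title of the series joins Polycomb repressive complex 2 (PRC2) to Elongin A, and the same lines also served as Eed null, EloA K754M, EloA K754R (CJ7) and EloA mutant (CCE) cells. Each wild type is 1 line, so the difference between lines cannot be told apart from a difference between cultures, passages or any batch that went with the line. The labels do not say whether the libraries of a group come from separate cultures, so p-values measure only the spread between libraries.

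Stem cells that lose LIF leave the naive state, pass through an epiblast-like state with an epithelial form, and then take up the 3 germ layers. Mesoderm arises where epithelial cells lose E-cadherin under Nodal, BMP and Wnt signals, and definitive endoderm arises where Nodal signalling is high. Posterior mesoderm and later tissues activate Cdx and Hox genes in an order that follows their position in the clusters. Lines of one genotype can pass through these steps at different speeds and in different proportions.

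Levels are the authors' RPKM values, read counts scaled to exon length and to the size of the library. From the value that a single read gives, depth was estimated, in units of 1000000 reads, at 31.5 and 32.0 in the CJ7 EBs, against 30.9 and 23.6 in the CCE EBs. Differences are CJ7 minus CCE on the scale of log2(RPKM + 0.5), given ± the standard error of the fit, with limma's moderated test and Benjamini-Hochberg adjustment, and n = 2 per line throughout. A gene is called at an adjusted p below 0.05. A pair of further contrasts of the same lines comes from other libraries: wild-type stem cells (mESCs, 2 CJ7 and 3 CCE libraries) and the EBs of other EloA genotypes (CJ7 K754M and K754R, 4 libraries, against 4 CCE libraries). In those 4 CCE libraries, labelled EloA null in 1 pair of titles and EloA+/- in the other, the names of the data columns give the opposite genotype, so they are called pair A and pair B. Levels in mESCs come from another deposited table and are only set side by side with EB levels.

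Of 17202 genes tested, 863 were higher and 561 lower in CJ7 EBs, which is 5.02% and 3.26% of the genes tested and 8.28% in all. Among the 1424 called genes, 636 differed by at least 2-fold and 58 by at least 4-fold, and 1247 were annotated as protein coding. In all 1424 the libraries of the lines did not overlap, as was the case for 46.9% of all genes tested. The median log2 difference over all genes was 0.006. These calls rest on the spread shared by all 14 EB libraries: a limma fit of the 4 libraries alone called 0 genes, with 2844 at an unadjusted p below 0.05 and a lowest adjusted p of 0.0508, whereas the 4 libraries with the replicate number as a block gave 977 calls, 581 higher and 396 lower. Without CJ7 replicate 1, 371 genes were higher and 383 lower. Without CJ7 replicate 2 the calls numbered 608, without CCE replicate 1 they numbered 552 and without CCE replicate 2 they numbered 828; 386 genes, 230 higher and 156 lower, were called whichever library was left out. With each library centred on its median, 747 genes were higher and 638 lower.

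The targets of the series were at like levels in both lines. Eed, the PRC2 subunit that binds trimethylated histone H3 lysine 27, was at 49.6 and 55.3 RPKM in CJ7 EBs, against 44.7 and 53.2 RPKM in CCE EBs. Tceb3, which encodes Elongin A, was at 10.1 and 11.6 RPKM in CJ7 EBs, against 9.89 and 11.4 RPKM in CCE EBs. Neither was called, and neither were any of 34 tested genes for Polycomb and Elongin subunits, whose median log2 difference was 0.02. In wild-type mESCs, Eed was at 105 and 119 RPKM in CJ7 and between 99.9 and 122 RPKM in CCE.

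Epithelial genes were higher in CJ7 EBs. Of 11 tested genes of surface ectoderm and epithelia, 9 rose and none fell, with a median log2 difference of 1.73; 2 of the 9 passed the filter on low values through CJ7 alone, and 7 or 8 were called with any 1 library left out. Cdh1, which encodes E-cadherin, was at 91.5 and 67.7 RPKM in CJ7 EBs, against 10.3 and 14.4 RPKM in CCE EBs (log2 difference 2.64 ± 0.23, limma adjusted p = 0.00018). Epcam, an epithelial adhesion molecule, was at 114 and 94.8 RPKM in CJ7 EBs, against 30.9 and 31.1 RPKM in CCE EBs (1.73 ± 0.12, limma adjusted p = 0.000101). Krt19, a keratin of simple epithelia, was at 71.7 and 87.8 RPKM in CJ7 EBs, against 17.9 and 30.6 RPKM in CCE EBs (1.74 ± 0.27, limma adjusted p = 0.00382). In each of these the lower CJ7 library stood well above the higher CCE library. Krt8 and Krt18, the keratin pair that every simple epithelium makes, were the exceptions of the list: Krt8 was at 634 and 533 RPKM in CJ7 EBs, against 792 and 562 RPKM in CCE EBs, and neither was called. In bulk RNA, fewer cells of a type and less RNA per cell cannot be told apart.

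The claudins, the sealing proteins of tight junctions, were among the genes that differed most. The family was picked out after its values were seen: of 12 tested members, Cldn3, Cldn4, Cldn6, Cldn7 and Cldn9 rose and none fell. Cldn6 was at 217 and 177 RPKM in CJ7 EBs, against 40.6 and 38.8 RPKM in CCE EBs (2.29 ± 0.17, limma adjusted p = 0.000101). Cldn4 was at 55.8 and 21.9 RPKM in CJ7 EBs, against 4.51 and 4.91 RPKM in CCE EBs (2.77 ± 0.37, limma adjusted p = 0.00168). Cldn3 was at 2.49 and 2.95 RPKM in CJ7 EBs and below 0.1 RPKM in both CCE EBs, 1 of few genes that were present in 1 line and near 0 in the other. Cldn12, which is found in many tissues, was at 14.6 and 15.5 RPKM in CJ7 EBs, against 14.1 and 15.9 RPKM in CCE EBs. Other genes among the 12 largest increases of protein-coding genes were Slc39a4, a zinc importer, the adhesion receptor gene Gpr56, and Trim13, a ubiquitin ligase gene. Grhl2 and Grhl3, transcription factors of epithelial differentiation, rose with log2 differences of 1.42 and 1.83. Zeb2, a repressor of Cdh1 picked out with the other E-box factors after its values were seen, was at 1.79 and 1.27 RPKM in CJ7 EBs, against 2.82 and 2.94 RPKM in CCE EBs (-0.75 ± 0.17, limma adjusted p = 0.0226), and Snai2, another one, fell by 1.57 on the log2 scale (limma adjusted p = 0.0107); each lost the call without CJ7 replicate 2, where the differences were -0.56 and -1.13, and without either CCE library. Snai1 was at 2.23 and 2.06 RPKM in CJ7 EBs, against 2.48 and 3.58 RPKM in CCE EBs, and was not called.

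Promoters of some epithelial genes that rose are shown for the motif CACCTG, read as CAGGTG on the other strand, an E-box that Zeb and Snail proteins are known to bind. They were chosen because they hold at least 2 matches. The windows run from 250 bases before to 50 after the RefSeq start site (GRCm38.p6, a later build than the mm9 of the deposited data), 5′ to 3′ along the gene, and capitals mark each match on either strand. The promoter of Epcam (chr17:87635729-87636028, plus strand) and that of Cldn6 (chr17:23679115-23679414, plus strand) held 2 matches each. The promoter of Cldn4 (chr5:134946885-134947184, minus strand) also held 2, and that of Crb3 (chr17:57061951-57062250, plus strand), a gene of apical polarity chosen after its values were seen, held 4.
Epcam: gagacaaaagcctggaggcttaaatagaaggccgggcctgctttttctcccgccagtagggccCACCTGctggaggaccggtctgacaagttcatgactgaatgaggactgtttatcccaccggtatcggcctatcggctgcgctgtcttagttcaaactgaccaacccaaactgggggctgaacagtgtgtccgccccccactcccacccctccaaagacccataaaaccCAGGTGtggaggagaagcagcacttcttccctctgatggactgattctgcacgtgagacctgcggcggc
Cldn6: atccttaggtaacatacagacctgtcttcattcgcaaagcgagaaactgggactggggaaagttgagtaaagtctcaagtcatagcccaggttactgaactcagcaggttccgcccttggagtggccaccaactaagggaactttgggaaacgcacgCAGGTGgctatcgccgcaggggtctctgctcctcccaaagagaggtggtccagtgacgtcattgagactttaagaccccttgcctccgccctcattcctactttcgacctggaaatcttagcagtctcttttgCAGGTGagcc
Cldn4: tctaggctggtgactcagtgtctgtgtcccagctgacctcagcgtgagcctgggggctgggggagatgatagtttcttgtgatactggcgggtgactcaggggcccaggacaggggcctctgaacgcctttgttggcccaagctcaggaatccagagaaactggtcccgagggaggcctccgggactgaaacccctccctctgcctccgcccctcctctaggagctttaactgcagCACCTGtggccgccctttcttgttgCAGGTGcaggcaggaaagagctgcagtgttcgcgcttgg
Crb3: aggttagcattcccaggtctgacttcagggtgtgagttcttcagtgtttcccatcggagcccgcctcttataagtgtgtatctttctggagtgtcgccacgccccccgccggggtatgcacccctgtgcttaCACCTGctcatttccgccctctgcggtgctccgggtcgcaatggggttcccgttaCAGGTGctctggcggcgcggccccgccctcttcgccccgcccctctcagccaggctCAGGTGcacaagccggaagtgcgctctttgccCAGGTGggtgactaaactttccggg
Crb3 was at 25.0 and 23 RPKM in CJ7 EBs, against 6.02 and 4.69 RPKM in CCE EBs (2.07 ± 0.18, limma adjusted p = 0.000145). Over the whole table, 20.2% of 32851 promoter windows held at least 1 match and 2.88% at least 2. The shares were 18.7% and 2.52% of the 12416 windows of tested genes that could be matched by name. Other epithelial genes that rose varied: the windows of Cldn3 and Krt7 held 1 match each and that of Grhl3 held 2. Of the 2 windows of Cldn7, 1 held none and the other held 2. The window of Ap1m2, an epithelial sorting gene picked after its values were seen, held 4. No window was at hand for Cdh1. The matches describe letters in a window; binding of a factor was not measured.

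**Figure D1:**
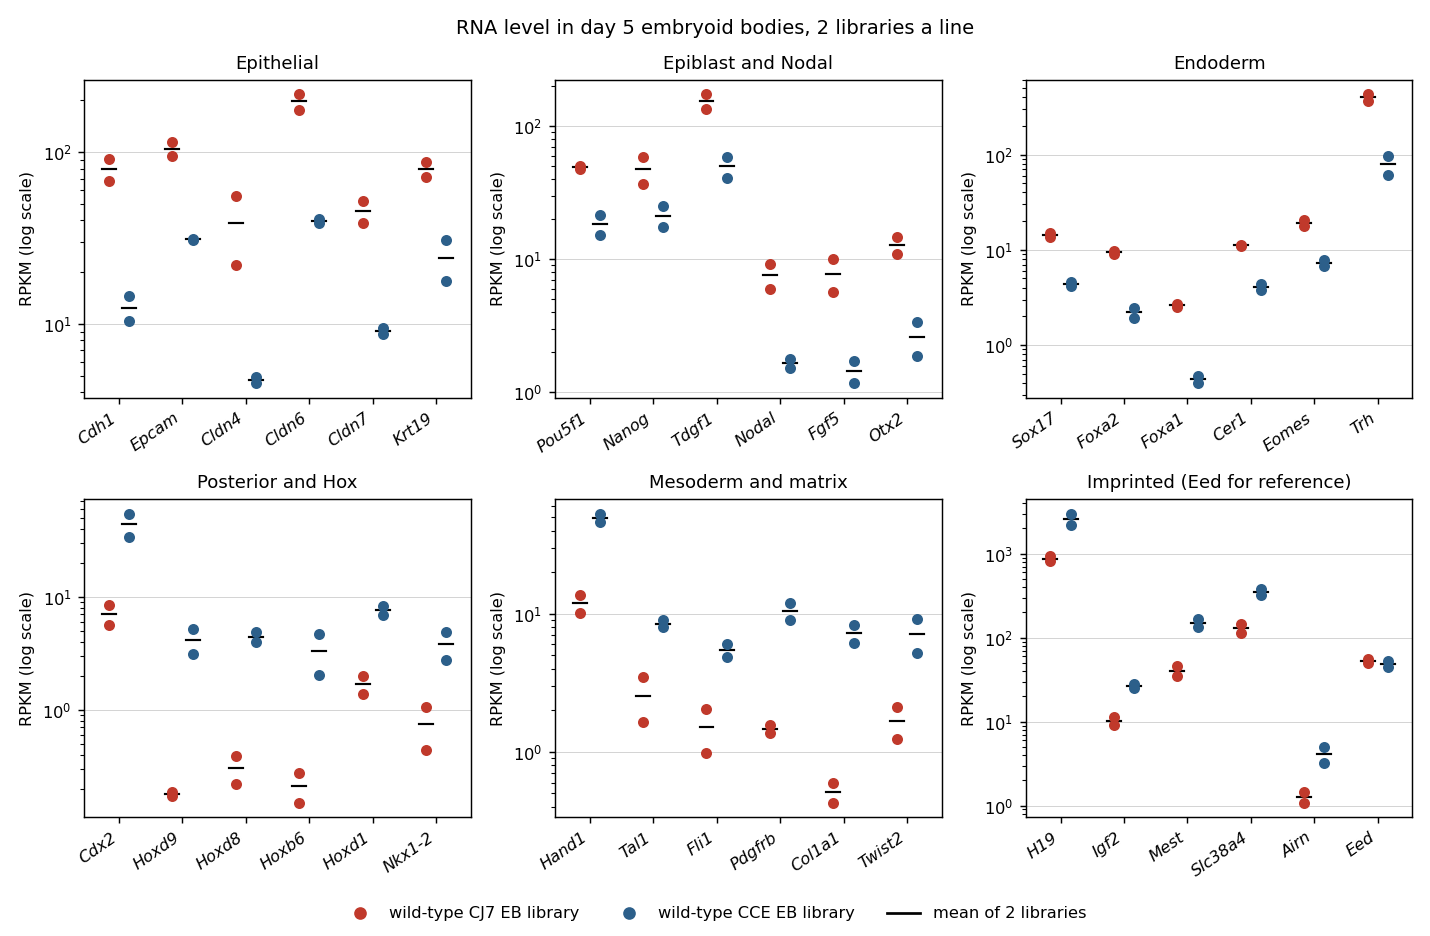
RPKM on a log scale in the 2 wild-type CJ7 EB libraries (red, left) and the 2 wild-type CCE EB libraries (blue, right) for 36 genes in 6 groups; bars are means of 2 libraries. All genes but Eed were picked from those called in the direction of their panel, and members without a call or in the opposite direction are not shown. The epithelial, epiblast and endoderm genes shown sit higher in CJ7. The posterior, mesoderm, matrix and imprinted genes shown sit lower, and Eed overlaps between the lines.

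Genes of the pluripotent epiblast and of its Nodal signalling were also higher in CJ7 EBs. Of 17 tested naive pluripotency genes 8 rose and 1 fell (median log2 difference 0.78), of 10 core pluripotency genes 5 rose (0.88), and of 12 primed epiblast genes 3 rose and 1 fell (0.78). Among the 5 core genes that rose, 1 passed the filter on low values through CJ7 alone. Leaving out any 1 library left 3 to 6 naive, 2 to 4 core and 1 to 3 primed genes called. Pou5f1, which encodes Oct4, was at 47.9 and 50.2 RPKM in CJ7 EBs, against 15.3 and 21.6 RPKM in CCE EBs (1.41 ± 0.25, limma adjusted p = 0.00761). Nanog was at 36.7 and 59.0 RPKM in CJ7 EBs, against 17.5 and 25.1 RPKM in CCE EBs (1.13 ± 0.31, limma adjusted p = 0.0489). Sox2, the partner of Oct4, was not called, at 4.07 and 2.98 RPKM in CJ7 EBs, against 2.65 and 2.61 RPKM in CCE EBs. The other list members that rose include Dppa5a, Dppa3, Zfp42, L1td1 and Utf1, whereas Esrrb, a factor of the naive state, was below 0.5 RPKM in all 4 libraries. Pou5f1 lost the call without CJ7 replicate 2 or CCE replicate 1 (differences of 1.37 and 1.16), as Nanog did (0.80 and 0.88), and Nanog also without CCE replicate 2 (1.39). Zfp42 and Utf1 each lost it without 2 or more libraries as well.

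Otx2, a transcription factor of the epiblast and forebrain, was at 10.9 and 14.8 RPKM in CJ7 EBs, against 1.87 and 3.35 RPKM in CCE EBs (2.13 ± 0.36, limma adjusted p = 0.00563). Fgf5, a growth factor gene of the primed epiblast, was at 9.95 and 5.66 RPKM in CJ7 EBs, against 1.72 and 1.17 RPKM in CCE EBs (2.06 ± 0.40, limma adjusted p = 0.0108). Dnmt3b, a de novo DNA methyltransferase, rose by 1.23 on the log2 scale. Otx2 lost the call without CJ7 replicate 2 or CCE replicate 1 (1.92 and 1.78), Fgf5 without CJ7 replicate 1 or CCE replicate 2 (1.68 and 1.85), and Dnmt3b without either CJ7 library or CCE replicate 1 (1.05 to 1.27). The member that fell, Nkx1-2, marks the posterior epiblast and was at 1.05 and 0.439 RPKM in CJ7 EBs, against 4.89 and 2.76 RPKM in CCE EBs; its call was lost without CJ7 replicate 2 or CCE replicate 1 (-1.44 and -1.43).

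In the Nodal and BMP list, 7 of 28 tested genes rose and 5 fell, and the directions split by arm. Nodal itself was at 9.23 and 6.00 RPKM in CJ7 EBs, against 1.79 and 1.53 RPKM in CCE EBs (1.88 ± 0.25, limma adjusted p = 0.00163). Its co-receptor Tdgf1 was at 135 and 174 RPKM in CJ7 EBs, against 40.9 and 58.9 RPKM in CCE EBs (1.63 ± 0.25, limma adjusted p = 0.00354). The secreted Nodal inhibitors Lefty1, Lefty2 and Cer1 rose by 1.31, 1.29 and 1.35, and the BMP antagonist Chrd and the activin antagonist Fst also rose, Fst without a call when either CJ7 library or CCE replicate 1 was left out. The genes that fell were Bmp4 and 4 genes known to respond to BMP: Smad6, Smad7, Msx1 and Msx2. Smad6, an inhibitor of BMP signalling, was at 15.5 and 16.9 RPKM in CJ7 EBs, against 49.2 and 43.0 RPKM in CCE EBs (-1.48 ± 0.11, limma adjusted p = 0.00012). Id1, Id2 and Id3, further BMP target genes, were not called.

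Definitive endoderm genes were higher in CJ7 EBs too. Of 13 tested definitive endoderm genes, 7 rose and none fell, with a median log2 difference of 1.18, and 6 or 7 were called with any 1 library left out. Foxa2, a pioneer transcription factor of endoderm, was at 9.72 and 9.11 RPKM in CJ7 EBs, against 1.94 and 2.46 RPKM in CCE EBs (1.88 ± 0.18, limma adjusted p = 0.000259). Sox17, which specifies endoderm, was at 13.5 and 15.0 RPKM in CJ7 EBs, against 4.55 and 4.14 RPKM in CCE EBs (1.60 ± 0.16, limma adjusted p = 0.000347). Trh, which encodes thyrotropin-releasing hormone, was at 431 and 366 RPKM in CJ7 EBs, against 97.7 and 60.4 RPKM in CCE EBs (2.36 ± 0.27, limma adjusted p = 0.000603). Foxa1, Foxa3 and Cer1 were among the other genes that rose, and Gata4, Gata6, Gsc, Hhex, Cxcr4 and Kit were not called. Eomes, a T-box factor upstream of endoderm, was at 20.4 and 17.9 RPKM in CJ7 EBs, against 6.71 and 7.73 RPKM in CCE EBs (1.35 ± 0.27, limma adjusted p = 0.0116), and lost the call without replicate 1 of CJ7 or of CCE (1.26 and 1.25). Visceral endoderm shares Foxa factors with definitive endoderm in the embryo, but its list holds no Foxa gene. That list had 4 of 19 tested genes higher, of which Spink3 was at 728 and 546 RPKM in CJ7 EBs, against 232 and 164 RPKM in CCE EBs. Afp, Apob and Ttr, the classical visceral endoderm genes, were not called, and Afp stayed below 2 RPKM in all 4 libraries.

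General mesoderm markers did not follow that pattern. T, the brachyury gene of the primitive streak, was at 57.5 and 69.4 RPKM in CJ7 EBs, against 37.4 and 58.1 RPKM in CCE EBs, and the groups overlapped. Mesp1, a factor of nascent mesoderm, was at 32.2 and 60.9 RPKM in CJ7 EBs, against 14.6 and 42.2 RPKM in CCE EBs, and Kdr, the VEGF receptor gene of early mesoderm, was at 20.5 and 22.5 RPKM in CJ7 EBs, against 23.4 and 29.6 RPKM in CCE EBs. None of the 3 was called, with or without a replicate block (limma adjusted p = 0.0978 for T, 0.225 for Mesp1 and 0.0964 for Kdr with it). Over the streak list, 4 of 20 tested genes rose (Nodal, Lefty2, Eomes and Lhx1) and 3 fell (Cdx1, Cdx2 and Snai2). Among the 3 that fell, 1 passed the filter on low values through CCE alone. The calls of Eomes, Lhx1 and Snai2 were lost in at least 2 of the 4 fits without 1 library.

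Hox genes and the caudal factors upstream of them were lower in CJ7 EBs. Of 22 tested Hox genes, 16 fell and none rose, with a median log2 difference of -0.95; with any 1 library left out 3 to 8 were called. Since 13 of the 22, among them 9 of the 16 that fell, were below 0.25 RPKM in both CJ7 EBs and were tested only through their level in CCE, the count is a description. The genes that fell belonged to all clusters: 5 of 5 tested in Hoxa, 4 of 7 in Hoxb, 2 of 3 in Hoxc and 5 of 7 in Hoxd. Hoxd8, above 0.25 RPKM in 1 CJ7 library, was at 0.390 and 0.221 RPKM in CJ7 EBs, against 4.89 and 4.01 RPKM in CCE EBs (-2.62 ± 0.24, limma adjusted p = 0.000198). Hoxd9 was at 0.174 and 0.186 RPKM in CJ7 EBs, against 5.23 and 3.10 RPKM in CCE EBs (log2 difference -2.74), and Hoxb6 at 0.275 and 0.150 RPKM in CJ7 EBs, against 4.65 and 2.04 RPKM in CCE EBs. At these low levels the added 0.5 makes the log2 difference smaller than the ratio of the RPKM values. Cdx2, a caudal homeobox factor that activates Hox genes and also marks trophoblast, was at 8.43 and 5.63 RPKM in CJ7 EBs, against 54.4 and 33.9 RPKM in CCE EBs (-2.55 ± 0.31, limma adjusted p = 0.000832). Elf5, a trophoblast factor, was below 0.05 RPKM in all 4 libraries.

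Many lateral mesoderm and early blood and vessel factors were lower in CJ7 EBs as well. Of 22 tested cardiac and lateral mesoderm genes 8 fell and 3 rose (median -0.53), and of 23 blood and endothelium genes 7 fell and 2 rose (-0.41); 6 to 9 and 4 to 9 of them were called with any 1 library left out. Hand1, a factor of extraembryonic and lateral mesoderm, was at 13.6 and 10.2 RPKM in CJ7 EBs, against 46.1 and 52.9 RPKM in CCE EBs (-2.03 ± 0.20, limma adjusted p = 0.000259). Tal1, a master regulator of blood, was at 3.47 and 1.64 RPKM in CJ7 EBs, against 8.03 and 8.94 RPKM in CCE EBs (-1.62 ± 0.26, limma adjusted p = 0.00443). Fli1, an ETS factor of blood and endothelium, was at 2.04 and 0.975 RPKM in CJ7 EBs, against 6.04 and 4.83 RPKM in CCE EBs (-1.61 ± 0.24, limma adjusted p = 0.0029). Etv2, Lmo2, Sox7, Egfl7 and Pecam1 also fell; Sox7 lost the call without replicate 2 of CJ7 or of CCE, and Pecam1 without CJ7 replicate 2 or CCE replicate 1. The members of the blood and endothelium list that rose were Sox17 and Gata1, the erythroid factor gene, at 1.38 and 0.872 RPKM in CJ7 EBs, against 0.453 and 0.174 RPKM in CCE EBs; Gata1 was not called in every fit without 1 library. The 3 cardiac genes that rose encode sarcomere proteins. Myl7 was at 21.1 and 27.0 RPKM in CJ7 EBs, against 6.49 and 8.19 RPKM in CCE EBs (1.65 ± 0.23, limma adjusted p = 0.00187). Myh7 and Myh6 rose by 1.97 and 0.69, but both passed the filter on low values through CJ7 alone. Of the 8 genes of that list that fell, 1 passed it through CCE alone. Tnnt2, also a sarcomere gene, fell. The embryonic globin Hbb-bh1 varied more between replicates than between lines, at 17.5 and 1.63 RPKM in CJ7 EBs, against 4.51 and 0.885 RPKM in CCE EBs.

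Mesenchymal and matrix genes fell with them: 9 of 22 tested members of that list fell and 2 rose, the collagen genes Col18a1 and Col9a3, neither of them called in every fit without 1 library; 6 to 9 were called with any 1 library left out. Col1a1, which encodes a chain of type I collagen, was at 0.591 and 0.427 RPKM in CJ7 EBs, against 6.16 and 8.24 RPKM in CCE EBs (-2.92 ± 0.19, limma adjusted p = 8.97e-05). Pdgfrb, a receptor of mesenchyme and pericytes, was at 1.57 and 1.36 RPKM in CJ7 EBs, against 11.97 and 8.997 RPKM in CCE EBs (-2.47 ± 0.20, limma adjusted p = 0.000145). Vim, the intermediate filament of mesenchyme, was at 180 and 158 RPKM in CJ7 EBs, against 339 and 354 RPKM in CCE EBs (-1.04 ± 0.10, limma adjusted p = 0.000293). Twist1, Cdh11, Fbn2, Col5a1, Col9a1, Col11a1 and Zeb2 also fell, Col9a1 without a call when CJ7 replicate 2 or CCE replicate 1 was left out (-0.95 and -0.77), as did Itga4, Gpr124 and Tgfb2 among the 12 largest decreases. The stem cells had been grown on fibroblasts, and a list of fibroblast genes that shares Col1a1 moved with these: 7 of 16 tested members fell and none rose, with a summed level of 52.1 and 45.7 RPKM in CJ7 EBs, against 92.0 and 94.8 RPKM in CCE EBs. In this list 2 of the 7 that fell passed the filter on low values through CCE alone. Of its defining markers, Twist2 fell as Col1a1 did (-1.79, limma adjusted p = 0.00346), and Thy1 and Prrx1 were not called. Fap was at 0 in all 4 libraries, and Dcn, Lum and Col3a1 were below 0.3 RPKM. Col1a2, the other type I collagen gene, was at 0.465 and 0.482 RPKM in CJ7 EBs, against 0.448 and 0.502 RPKM in CCE EBs. The part of fibroblasts in the matrix result was not tested.

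**Figure D2:**
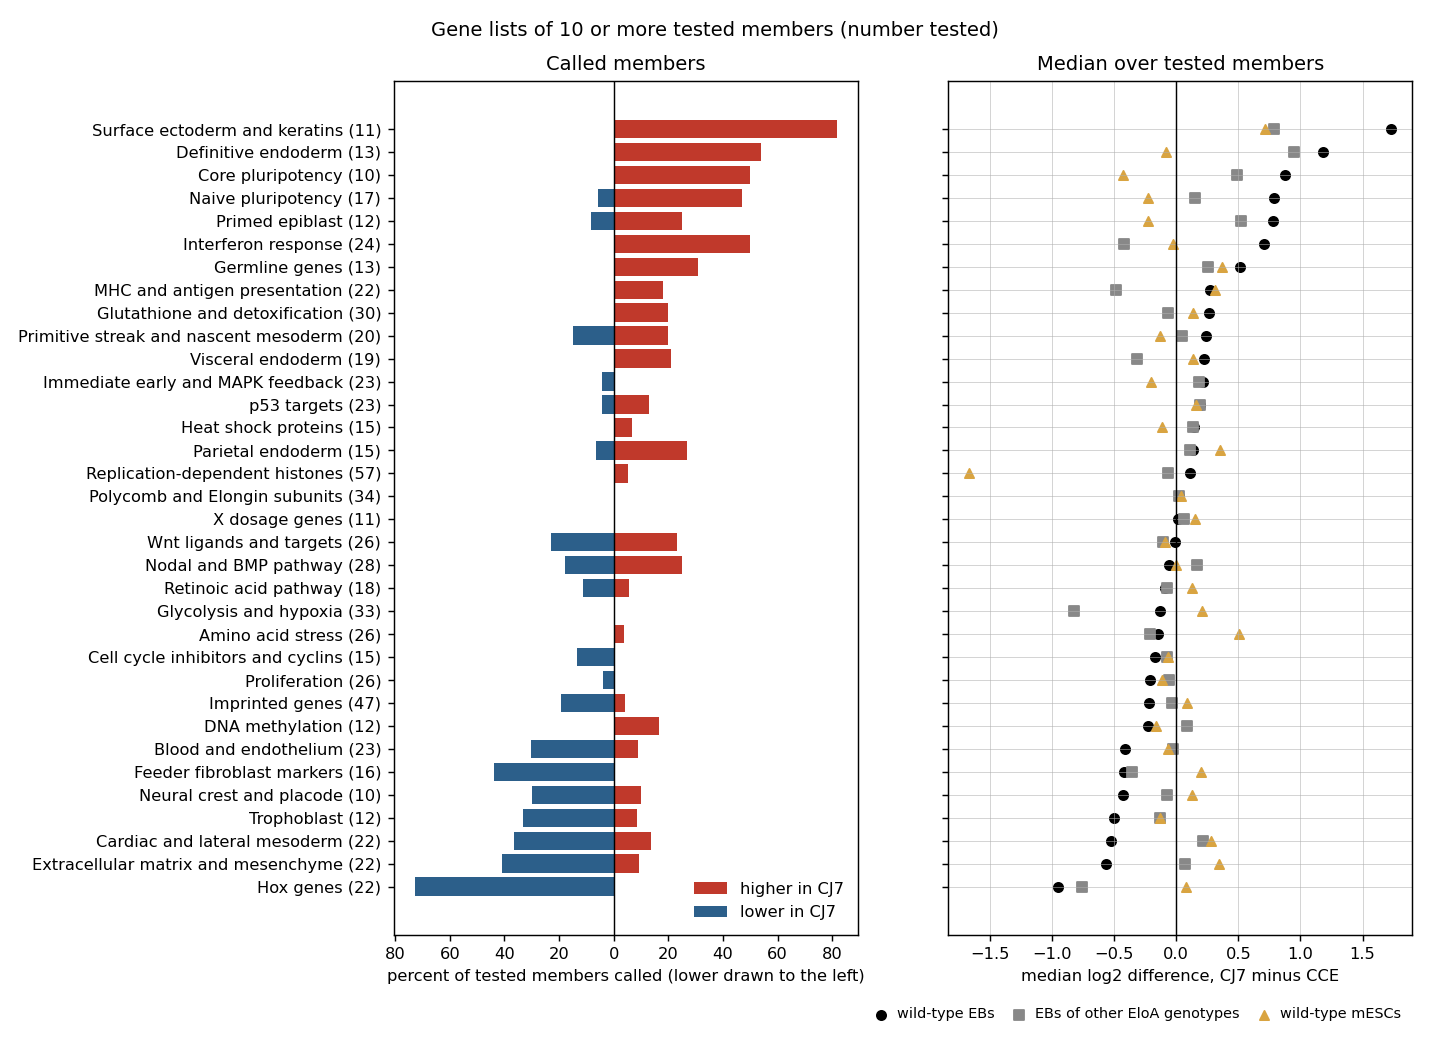
Left, the percent of tested members of each list called higher (red, to the right) or lower (blue, to the left) in wild-type CJ7 EBs. Right, the median log2 difference of each list in wild-type EBs (circles), EBs of other EloA genotypes (squares) and wild-type mESCs (triangles): the epithelial list stands at one end, at 1.73 in wild-type EBs, and Hox genes at the other, at -0.95.

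Of 47 tested imprinted genes, 9 fell in CJ7 EBs and 2 rose, Grb10 and Ddc, both on chromosome 11; 6 to 10 of the 47 were called with any 1 library left out. H19, a maternally expressed non-coding RNA, was at 932 and 823 RPKM in CJ7 EBs, against 2997 and 2219 RPKM in CCE EBs (-1.56 ± 0.22, limma adjusted p = 0.00234). Igf2, its paternally expressed neighbour and a fetal growth factor, was at 11.3 and 9.03 RPKM in CJ7 EBs, against 28.1 and 25.1 RPKM in CCE EBs (-1.35 ± 0.15, limma adjusted p = 0.000567). Mest was at 46.1 and 34.8 RPKM in CJ7 EBs, against 167 and 134 RPKM in CCE EBs (-1.89 ± 0.20, limma adjusted p = 0.0005). Grb10, an adaptor gene that restrains growth, was at 4.37 and 3.51 RPKM in CJ7 EBs, against 2.08 and 1.71 RPKM in CCE EBs (0.89 ± 0.16, limma adjusted p = 0.00745), and the growth-restraining Cdkn1c and Igf2r were not called. The amino acid transporter gene Slc38a4 and the zinc finger gene Peg3, both paternally expressed, fell by 1.45 and 0.93. The non-coding RNA Airn fell too, but it overlaps Igf2r on the other strand, and the strand rule of the counting is not given in the sources used here. In the Dlk1-Dio3 domain the paternally expressed Dlk1 fell by 1.08 on the log2 scale, at 0.167 and 0.180 RPKM in CJ7 EBs, against 0.966 and 0.882 RPKM in CCE EBs, so it passed the filter through CCE alone. Grb10, Ddc and Dlk1 were not called in every fit without 1 library. Meg3 and Rian of that domain were not called, at 12.5 and 17.1 RPKM (Meg3) in CJ7 EBs, against 12.7 and 14.9 RPKM in CCE EBs. Both lines expressed the Y-linked genes Ddx3y, Eif2s3y and Uty without a call, and Xist was below 0.4 RPKM in all 4 libraries. With a replicate block Eif2s3y was called (limma adjusted p = 0.0181).

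Hairpin rows of a microRNA cluster on the X chromosome were among the largest decreases of non-coding rows; all but Mir503 and Mir450-2 were picked after their values were seen. The sequences are shown to set out which of them share a target-recognition seed: capitals mark the seed, bases 2 to 8 of the mature microRNA (RefSeq, GRCm38.p6, minus strand of chromosome X).
mmu-miR-503-5p: uAGCAGCGggaacaguacugcag
mmu-miR-322-5p: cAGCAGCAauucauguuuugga
mmu-miR-351-5p: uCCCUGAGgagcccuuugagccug
mmu-miR-450a-5p: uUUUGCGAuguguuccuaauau
The seeds of miR-503-5p and miR-322-5p share their first 6 bases, those of the miR-15 and miR-16 group, while miR-351-5p carries the seed of the miR-125 family and miR-450a-5p stands alone. Mir503 was at 2.27 and 0.890 RPKM in CJ7 EBs, against 12 and 21.7 RPKM in CCE EBs (-3.09 ± 0.45, limma adjusted p = 0.00246). Mir322 was at 8.10 and 6.29 RPKM in CJ7 EBs, against 30.9 and 27.9 RPKM in CCE EBs (-1.97 ± 0.26, limma adjusted p = 0.00162). Mir351 was at 21.7 and 10.5 RPKM in CJ7 EBs, against 55.4 and 56.5 RPKM in CCE EBs (-1.85 ± 0.29, limma adjusted p = 0.00339). Mir450-2 was listed at 0 in both CJ7 EBs, against 1.43 and 1.86 RPKM in CCE EBs, and Mir542 was not called. These rows count fragments of total RNA over short hairpins, so they report the primary transcript and not the mature microRNA. Other rows for RNA copies and pseudogenes are uncertain because near-identical copies share reads: the largest called increases were Gm12260 and Gm1840 (2.67 and 2.34), and Mir143 was lower, listed at 0 in both CJ7 EBs, against 2.61 and 2.04 RPKM in CCE EBs, with the call lost without either CJ7 library.

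Interferon-response genes were higher in CJ7 EBs. Of 24 tested members, 12 rose and none fell (median log2 difference 0.71), and 5 to 8 were called with any 1 library left out. Gbp2, an interferon-induced GTPase, was at 16.8 and 22.5 RPKM in CJ7 EBs, against 6.09 and 8.01 RPKM in CCE EBs (1.42 ± 0.24, limma adjusted p = 0.00563), and lost the call without CJ7 replicate 2 or CCE replicate 1 (1.21 and 1.23). Ddx58, which encodes the RNA sensor RIG-I, was at 3.77 and 3.90 RPKM in CJ7 EBs, against 0.734 and 0.865 RPKM in CCE EBs (1.74 ± 0.16, limma adjusted p = 0.000229). Gbp3, Igtp, Isg15, Usp18 and Bst2 were among the others that rose, Isg15 with its call lost without either CJ7 library or CCE replicate 1, while Irf1, Irf7 and Stat2, which transmit interferon signals, were not called. Of 22 tested genes of antigen presentation, 4 rose: the immunoproteasome subunit Psmb8, B2m, Cd74 and H2-D1. With any 1 library left out 2 or 3 were called, and Cd74 and H2-D1 each lost the call in 3 of the 4 fits. B2m, the invariant chain of MHC class I, was at 57.3 and 55.7 RPKM in CJ7 EBs, against 24.8 and 32.7 RPKM in CCE EBs (0.98 ± 0.15, limma adjusted p = 0.00295).

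Genes of metal and redox metabolism were higher in part. Mt2, a metallothionein that binds zinc and copper, had the largest log2 difference of the called protein-coding genes and a wide spread between replicates, at 127 and 539 RPKM in CJ7 EBs, against 9.06 and 56.5 RPKM in CCE EBs (3.49 ± 0.89, limma adjusted p = 0.0367). Its neighbour Mt1 followed the same order over the libraries, at 91.3 and 457 RPKM in CJ7 EBs, against 8.25 and 65.7 RPKM in CCE EBs (3.09 ± 1.03). Mt1 was not called, except with a replicate block (limma adjusted p = 0.00795). In both lines replicate 2 was higher for both genes, and Mt2 lost the call without CJ7 replicate 2 (2.45) or CCE replicate 1 (2.20). Of 30 tested genes of glutathione and detoxification, 6 rose, among them Gpx2, Cbr3, Mgst1 and Nqo1, and none fell; 2 to 4 were called with any 1 library left out, and Mgst1 and Nqo1 each lost the call in 3 of the 4 fits. Of 33 tested glycolysis and hypoxia genes none was called, and the heat shock, amino acid stress, proliferation and immediate early lists had at most 1 call each.

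Wnt pathway genes split evenly, with 6 of 26 tested higher and 6 lower, and 6 to 10 called with any 1 library left out. In each direction 1 of the 6 passed the filter on low values through 1 line alone. The transcription factor Sp8 was at 7.197 and 8.79 RPKM in CJ7 EBs, against 1.497 and 1.96 RPKM in CCE EBs (1.93 ± 0.24, limma adjusted p = 0.00103), and Sp5, Sfrp1, Sfrp5, Dkk1 and Wnt8a also rose, Sfrp1 without a call when replicate 1 of CJ7 or of CCE was left out. Wnt5a, a ligand of non-canonical signalling in mesoderm, was at 4.88 and 3.26 RPKM in CJ7 EBs, against 13.1 and 9.72 RPKM in CCE EBs (-1.39 ± 0.20, limma adjusted p = 0.00219). Axin2, the general readout of canonical Wnt signalling, was at 10.9 and 10.9 RPKM in CJ7 EBs, against 10.1 and 11.2 RPKM in CCE EBs. Among genes of cell division, Ccnd1, which encodes cyclin D1, was at 21.4 and 16.4 RPKM in CJ7 EBs, against 40.9 and 46.4 RPKM in CCE EBs (-1.20 ± 0.20, limma adjusted p = 0.00492). Neuroectoderm had hardly begun in either line: 6 of 30 listed genes passed the filter on low values, none was called, and Pax6 was below 0.05 RPKM throughout.

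Chromosome 11 stood apart. Its 1436 tested genes had a median log2 difference of 0.26, with 160 higher and 29 lower in CJ7 EBs, and 78.2% of them had a positive difference. The medians of the other 19 chromosomes lay between -0.05 and 0.04. Chromosome 11 held 8.35% of the genes tested and 18.5% of the genes called higher. The median deviation of chromosome 11 genes from their mean over the EB libraries was 0.29 and 0.26 in the wild-type CJ7 EBs, against 0.00 and -0.01 in the wild-type CCE EBs. The other 10 EB libraries, CJ7 ones included, lay between -0.13 and 0.09. In mESCs the same value was 0.36 and 0.33 in wild-type CJ7 and 0.01 in each of the 3 wild-type CCE libraries. Of the genes that lead the sections above, Cldn7, Krt19, Igfbp3, Lhx1 and Myl7 rose and Hand1, Col1a1 and the Hoxb genes fell on this chromosome. The number of DNA copies was not measured.

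**Figure D3:**
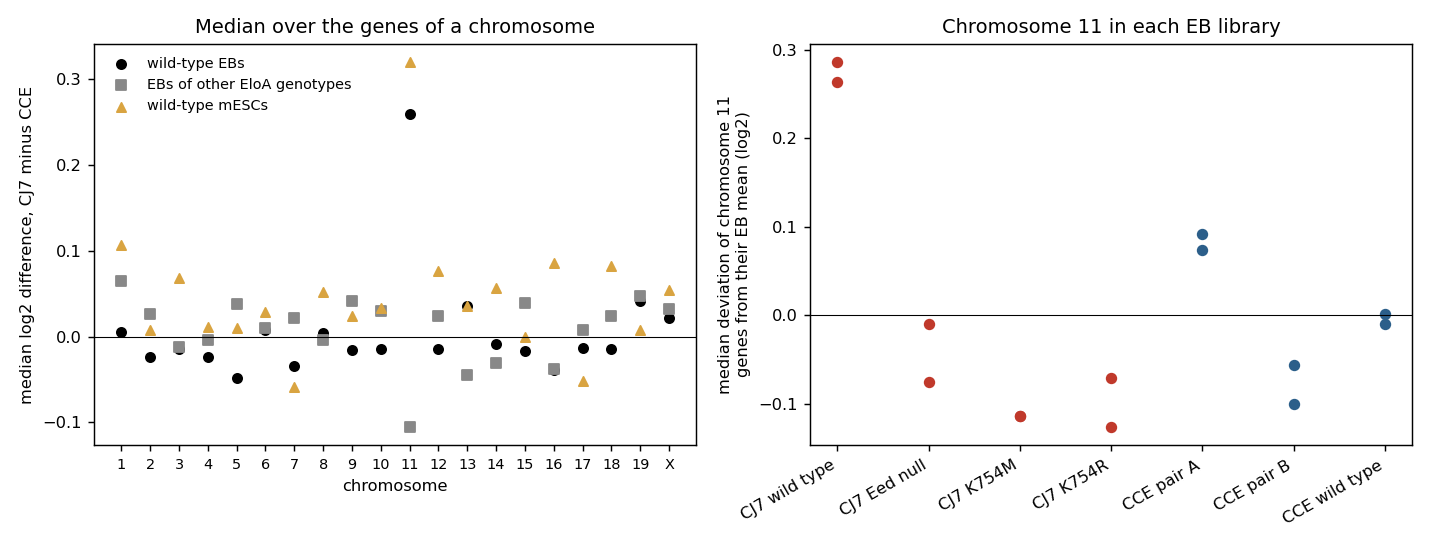
Left, the median log2 difference over the tested genes of each chromosome in wild-type EBs, EBs of other EloA genotypes and wild-type mESCs. Right, the median deviation of chromosome 11 genes from their mean over the 14 EB libraries, 1 point per library: the 2 wild-type CJ7 libraries, at 0.29 and 0.26, lie above the others.

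Many of the differences were found again in EBs of other EloA genotypes, in which 909 of 18381 tested genes (4.95%) were higher and 680 (3.70%) lower in CJ7, 8.64% in all. Of the 1424 genes called in wild-type EBs, 1398 were tested there, 563 were called in the same direction and 46 in the opposite one. The 563 are 39.5% of all wild-type calls and 35.4% of the calls in the other genotypes. The direction was the same for 79.3% of the called genes and for 54.8% of all genes tested in both. These libraries differ in EloA genotype as well as in line, so the 2 cannot be told apart in them. Otx2 was at 14.1 to 26.0 RPKM in the 4 CJ7 mutant EBs, against 0.983 to 4.86 RPKM in the 4 CCE libraries, and Fgf5 at 18.8 to 23.4 RPKM in the CJ7 mutants, against 1.05 to 3.55 RPKM in those CCE libraries. Cdx2 was at 7.69 to 14.7 RPKM in the CJ7 mutants, against 17.7 to 53.4 RPKM in those CCE libraries. These 3 genes were picked as examples from those called in wild-type EBs, so their ranges are a description. Of the tested genes, 11 of 22 Hox genes, 8 of 13 definitive endoderm genes and 7 of 11 epithelial genes were called in the same direction there as the list moved in wild-type EBs. Other lists did not recur in this way: of 23 blood and endothelium genes none was lower and 1 higher (median -0.02), of 22 cardiac and lateral mesoderm genes 5 were higher and 4 lower (0.22), and of 22 matrix genes 3 were higher and 5 lower (0.07). Interferon genes went the other way: 10 of 24 were lower and 2 higher in the CJ7 mutants, with Gbp2 at 0.536 to 2.43 RPKM in the CJ7 mutants, against 4.68 to 11.97 RPKM in those CCE libraries. Pou5f1 split by genotype within CJ7, at 51.5 and 52.3 RPKM in K754M EBs and 5.61 and 3.44 RPKM in K754R EBs, against 11.7 to 27.3 RPKM in the CCE libraries.

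**Figure D4:**
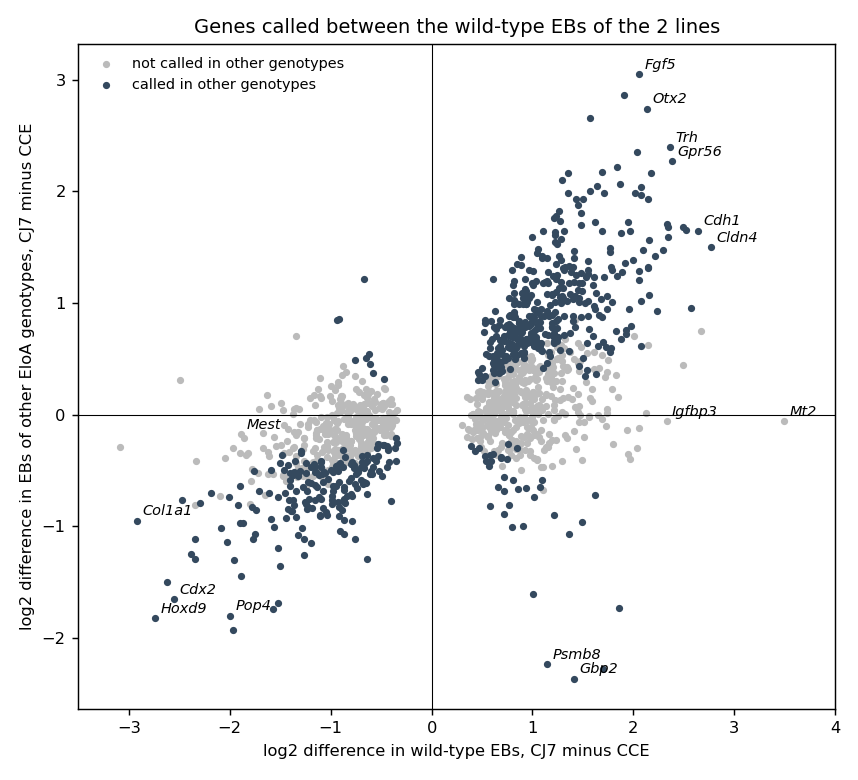
Each point is a gene called between the wild-type EBs of the 2 lines, at its log2 difference there (x axis) and its log2 difference in EBs of other EloA genotypes (y axis), both CJ7 minus CCE; dark points are also called in the second contrast. Fgf5, Otx2 and Trh lie far from 0 on both axes, Mt2 and Igfbp3 lie near 0 on the y axis, and Gbp2 and Psmb8 have opposite signs.

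Fewer of them were present before differentiation. In wild-type mESCs 2815 of 18625 tested genes (15.1%) were higher and 2314 (12.4%) lower in CJ7, 27.5% in all, or 2106 higher and 2747 lower with each library centred on its median. Depth there, in units of 1000000 reads, was 11.1 and 13.6 in CJ7, against 42.9 to 46.4 in CCE. Of the 1424 genes called in EBs, 1211 were tested in mESCs, where 273 were called in the same direction and 99 in the opposite one. The 273 are 19.2% of all EB calls, tested in mESCs or not, and 5.32% of the mESC calls. Of the 273, 74 lie on chromosome 11. The direction was the same for 60.1% of called genes and 55.1% of all genes tested in both. Some genes that were higher in CJ7 EBs were lower in CJ7 mESCs: Pou5f1 had a log2 difference of -0.34 (limma adjusted p = 0.00626) and Nodal of -0.91 (limma adjusted p = 0.0362). Dppa3, a maternal factor that guards DNA methylation, was higher in CJ7 at both stages, at 2.79 and 2.25 RPKM in CJ7 EBs, against 0.182 and 0.286 RPKM in CCE EBs, and at 24.6 and 10.4 RPKM in CJ7 mESCs, against 1.65 to 3.01 RPKM in CCE mESCs. Trh, by contrast, was at 3.14 and 4.47 RPKM in CJ7 mESCs, against 33.0 to 38.7 RPKM in CCE mESCs, so the direction of the line difference was opposite in the 2 stages. Cdh1 was higher in CJ7 mESCs, at 137 and 126 RPKM, against 79.4 to 81.2 RPKM in CCE mESCs.

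A set of 103 genes was called in the same direction in all 3 contrasts, 86 higher and 17 lower in CJ7, of which 11 lie on chromosome 11. Pop4, which encodes a protein subunit of RNase P, was at 29.3 and 25.4 RPKM in CJ7 EBs, against 121 and 101 RPKM in CCE EBs (-1.999 ± 0.21, limma adjusted p = 0.000467). In mESCs it was at 17.1 and 29.8 RPKM in CJ7, against 72.1 to 73.9 RPKM in CCE, and in the other EBs at 28.3 to 35.8 RPKM in CJ7, against 95.2 to 131 RPKM in CCE. Every CJ7 library was thus below every CCE library within each stage for these groups. Pop4 was picked for its difference in all 3 contrasts, so this separation describes the pick. Trim13 was at 11.7 and 14.9 RPKM in CJ7 EBs, against 1.81 and 1.97 RPKM in CCE EBs, and at 61.5 and 40.7 RPKM in CJ7 mESCs, against 12.03 to 21.7 RPKM in CCE mESCs. A4galt, which makes the glycolipid Gb3, was at 13.7 and 13.3 RPKM in CJ7 EBs, against 2.86 and 2.77 RPKM in CCE EBs (2.08 ± 0.28, limma adjusted p = 0.00162), and at 44.2 and 51.3 RPKM in CJ7 mESCs, against 17.9 to 21.4 RPKM in CCE mESCs. The other genes with the largest smallest difference over the 3 contrasts were Gpx2, the protease gene Ctsc, the transcriptional repressor gene Nab1, 4933402E13Rik and Plat, the plasminogen activator gene, all higher in CJ7, with 2 uncertain rows, AC102240.1 (higher) and the processed pseudogene Rbpsuh-rs3 (lower). In wild-type EBs 4933402E13Rik, Plat and AC102240.1 lost the call without 2 or 3 of the 4 libraries.

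At the highest levels the composition of the libraries also differed. Besides Mt2, Trh, Cldn6, Krt19, Epcam and Spink3, the largest increases among genes averaging at least 50 RPKM, the largest decreases at that level were Spin2, Pop4, Dok4, Mest, H19 and Tpm1. Dok4, an adaptor of receptor tyrosine kinases, was at 25.0 and 21.9 RPKM in CJ7 EBs, against 101 and 84.2 RPKM in CCE EBs (-1.96 ± 0.14, limma adjusted p = 0.000101). Spin2 was at 40.9 and 20.2 RPKM in CJ7 EBs, against 205 and 107 RPKM in CCE EBs (-2.34 ± 0.48, limma adjusted p = 0.0146), and lost the call without CJ7 replicate 2 or CCE replicate 1 (-1.84 and -1.88). The rows of 7SK, an abundant small nuclear RNA, summed to 100201 and 95859 RPKM in CJ7 EBs, against 57836 and 59651 RPKM in CCE EBs, and the part of this in other values was not tested.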

How the data were processed

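Total RNA was depleted of ribosomal RNA before library preparation, per the labels' protocols. The authors deposited RPKM values, 1 table for EBs and 1 for mESCs, each with 37583 genes, of which 3730 rows share a name. CASAVA 1.7, STAR and the mm9 build are named, without their roles, per the submitters' processing notes; which program counted the reads, with which annotation and strand rule, is not known here, and no read counts were used. Genes with at least 0.25 RPKM in at least 2 of the compared libraries were tested as log2(RPKM + 0.5) with limma-trend (limma 3.58.1, R 4.3.3). The 14 libraries of a table entered 1 fit, since 4 libraries give few degrees of freedom, with Benjamini-Hochberg adjustment. Tables and plots used Python 3.11.15, and GENCODE M21 served only for gene type, chromosome and exon length (32860 genes matched). Depth was read from the steps between RPKM values below 0.3 and is approximate.

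The test was run on simulated data of 17197 genes, with levels and spreads taken from the EB fit. It recovered 53 of 100 genes changed 2-fold and 84 of 100 changed 4-fold, with 11 false calls among 148. Noise was drawn independently for each library, so any spread shared by replicate number was not simulated. Named genes are the 12 largest called protein-coding differences per direction, the 6 largest per direction at a mean of at least 50 RPKM, up to 4 called members and the first 2 members of each list, genes at 1 RPKM or more in 1 line and at most 0.1 in the other, Eed and Tceb3, the 2 largest non-coding rows per direction, and the 10 largest called in all 3 contrasts. Other genes complete a list's count or were picked after their values were seen. The members and lists were chosen with earlier results of these data known. Alternatives changed the pseudocount, the filter, the scaling, the libraries in the fit, a replicate block and the size of a call. Some genes that these rules name are not reported here.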

Additional observations from a re-analysis of the deposited data

Results flagged for a closer look

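The line difference itself differed between wild-type EBs and EBs of other EloA genotypes for 354 of 17202 genes (2.06%), by a limma contrast of the 2 differences within the EB fit at an adjusted p below 0.05. In 230 the wild-type difference lay further towards CJ7 and in 124 further towards CCE, and 75 of the 354 lie on chromosome 11. The contrast was chosen after seeing the data. Below, each value is the line difference in wild-type EBs minus that in the other genotypes, on the log2 scale, for the named genes that passed. EloA genotype differs between those groups as well as line, so its part cannot be told apart.

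The largest values belonged to interferon genes and Psmb8; 11 of 24 interferon and 6 of 22 antigen presentation genes passed. In the next 6 the line difference had opposite signs in the 2 contrasts. The value was 3.78 for Gbp2, 3.59 for Gbp3, 3.38 for Psmb8, 2.45 for Isg15, 1.60 for H2-D1 and 1.44 for H2-K1, another MHC class I gene. Psmb8 was at 0.0449 to 0.191 RPKM in the 4 CJ7 mutant EBs, against 1.60 to 3.57 RPKM in the 4 CCE libraries. The value was 1.36 for Ddx58 and 0.93 for B2m, whose differences had the same sign in both.

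Of 11 epithelial list genes 3 passed, and Cdh1, Cldn6, Grhl2 and Grhl3 did not. Those that did, and related genes outside the list, had a larger excess in CJ7 among wild-type EBs, by 1.73 for Krt19, 1.62 for Cldn3, 1.31 for Cldn7, 1.13 for Epcam, 1.05 for Crb3 and 1.17 for Ap1m2, an adaptor gene of epithelial sorting picked after its values were seen. Epcam was at 46.4 and 47.0 RPKM in the K754M EBs and 84.1 and 88.3 RPKM in the K754R EBs of CJ7, against 31.4 to 52.6 RPKM in the 4 CCE libraries. Among pluripotency genes the value was 2.34 for Dppa3, 1.59 for L1td1 and 1.56 for Pou5f1. It was 2.39 for Igfbp3, a binding protein of insulin-like growth factors, 2.07 for Sp8, 1.44 for Nqo1, 1.43 for Cbr3, 1.30 for the p53 target Pmaip1, 1.27 for Hist3h2ba and 0.80 for Cited1. The uncertain rows AC132957.1 and Gm12260, both on chromosome 11, had 2.10 and 1.92.

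Values below 0 mark genes whose difference lay further towards CCE in wild-type EBs. Of 22 matrix list genes 4 passed. Mesenchymal genes of that list and outside it had -1.97 (Col1a1), -1.71 (Pdgfrb), -1.43 (Col5a1), -1.36 (Fbn2), -1.26 (Tgfb2), -1.50 (Gpr124) and -1.37 (Tpm1, a tropomyosin gene). The BMP-responsive genes Smad6 and Msx1 had -1.12 and -1.11. Of 47 imprinted genes 6 passed, among them Mest with -1.72 and Igf2 with -0.94, with Mest at 89.0 to 95.6 RPKM in the CJ7 mutants, against 82.4 to 127 RPKM in those CCE libraries. The hairpin rows had -2.81 (Mir143), -2.79 (Mir503), -1.66 (Mir322) and -1.64 (Mir351). The placental gene Plac1 had -1.14 and Dusp2, a phosphatase gene of MAPK feedback, had -1.17. Of the genes of the sex chromosomes, Xist had -2.13, Eif2s3y 1.30, Ddx3y 1.18 and Uty 1.07. None of them was called in wild-type EBs without a replicate block. Ddx3y was at 5.54 to 11.2 RPKM in the CJ7 mutants, against 12.3 to 20.9 RPKM in those CCE libraries.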

How the results depend on the processing

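The count of 1424 genes for wild-type EBs became 0 in the fit of the 4 libraries alone, 977 in that fit with the replicate block (chosen after seeing the data), 636 with a call that also asks for 2-fold, 552 to 828 with 1 library left out, and 386 for genes called in every such fit (an alternative chosen after seeing the data). A replicate block raised it to 2529; replicate differences of the EB groups correlated at 0.0155 to 0.455 over 21 pairs of groups, 20 of them above 0.1, but the labels do not say what a shared number marks, so pairing is a hint from the data only. In the other-genotype EBs the 1589 calls became 2984 with the replicate block, 3402 with the compared libraries only and the replicate block (chosen after seeing the data), 320 with 2-fold, and 849 to 1074 with 1 library left out. In mESCs the 5129 calls became 1510 with the compared libraries only and the replicate block, 1879 with 2-fold, and 2711 to 3885 with 1 library left out. Other pseudocounts and filters, quantile normalization and median centring kept these counts within 1.5 times. None of the 143 named called genes changed direction under any alternative in which it could be tested. Since the libraries of called genes did not overlap, only median centring and quantile normalization could have reversed a direction. Named genes without a call were not followed in this way. Of 143 named called genes, 136 to 140 could be tested without a given library and 95 to 112 of them stayed called, against 0 of 143 in the fit of the 4 libraries alone and 121 in that fit with the replicate block. With 2 libraries a line and no counts, small differences of low genes were not detectable.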

Other observations

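Some germ cell genes were higher in CJ7 EBs. Of 13 tested germline genes, Dnmt3l, Tdrd12, Tex19.1 and Zfp42 rose and none fell, and each of the 4 lost the call in at least 1 fit without 1 library. Tdrd12, which acts against transposons in germ cells, was at 0.885 and 1.75 RPKM in CJ7 EBs, against 0.168 and 0.365 RPKM in CCE EBs (log2 difference 1.22 ± 0.24, limma adjusted p = 0.0111). Both tested Rhox genes, X-linked homeobox genes of placenta and germ line, rose, with Rhox6 at 6.18 and 6.38 RPKM in CJ7 EBs, against 0.643 and 1.09 RPKM in CCE EBs (2.33 ± 0.26, limma adjusted p = 0.000526). In wild-type mESCs Rhox6 was lower in CJ7, at 0.538 and 1.24 RPKM, against 2.66 to 2.82 RPKM in CCE (limma adjusted p = 0.00372).

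Of 12 tested trophoblast genes, Cdx2, Hand1, Plac1 and Sct fell and Eomes rose; Cdx2, Hand1 and Eomes are also known from mesoderm and endoderm. Plac1, a placental gene, was at 1.07 and 0.887 RPKM in CJ7 EBs, against 8.61 and 5.98 RPKM in CCE EBs (-2.38 ± 0.18, limma adjusted p = 0.000101). Of 57 tested replication-dependent histone genes, Hist3h2ba, Hist3h2a and Hist1h2aa rose and none fell, a share near the 5.02% of all tested genes called higher. Hist3h2a lies on chromosome 11, as Hist3h2ba does, and Hist3h2a and Hist1h2aa were not called in every fit without 1 library. In wild-type mESCs 50 of the 57 histone genes were lower in CJ7, against 12.4% of all genes tested there, with a median log2 difference of -1.67. Hist3h2ba, on chromosome 11, was at 68.6 and 72.4 RPKM in CJ7 EBs, against 25.4 and 25.5 RPKM in CCE EBs (1.45 ± 0.16, limma adjusted p = 0.0005). Of 23 tested p53 target genes 3 rose and 1 fell. Perp, a desmosome gene of that list, was at 21.8 and 19.5 RPKM in CJ7 EBs, against 9.996 and 11.4 RPKM in CCE EBs (0.92 ± 0.12, limma adjusted p = 0.00176).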
